A study of Mus musculus with 26 samples.

Results

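Plasmablasts made in culture were compared with the splenic B cells from which such cultures start. The comparison rests on 4 of the 26 libraries of the series, 2 of plasmablasts (PB) and 2 of B cells, and on the 9442 of 25146 gene lines that reached 5 reads per 1000000 (RPM) in 2 of these 4 libraries. PB were GFP+ CD138+ cells sorted after 3 days of stimulation with IL-4, at 2 ng/mL, and with 10 ng/mL of LPS. Blast cells, GFP- CD138- from the same 3 days of stimulation, gave 2 more libraries as the middle state, and prePB, GFP+ CD138-, gave 2 that took part in the fit. The B cell group was sorted from fresh spleen by B220 alone, without a gate on GFP or CD138, from mice 8 to 10 weeks old. All 4 groups carried EGFP fused to the N terminus of BLIMP1 on both alleles, on the C57BL/6 strain, so no group without the reporter took part. PB therefore differed from B cells in culture, in stimulation and in differentiation, and these cannot be told apart in the direct comparison. The labels do not tell whether the 2 replicates of a group are separate animals or cultures. The p-values thus cover the spread among these libraries alone, and that spread may be technical.

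A plasmablast is a dividing B-lineage cell that has begun to secrete antibody. The repressor BLIMP1, encoded by Prdm1, shuts down the genes of the mature B cell, while IRF4 and the spliced form of XBP1 drive the expansion of the endoplasmic reticulum (ER) in which antibody chains are folded, glycosylated and shipped to the Golgi. LPS and IL-4 first turn a small B cell into a large, metabolically active blast, and a fraction of blasts then becomes plasmablasts. Genes can therefore change on entry into the blast state, on the step out of it, or on both.

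The libraries held about 3527000 and 4268000 reads in PB and 4947000 and 4152000 in B cells, taking the most frequent value under 1 RPM as 1 read. Lines with all 26 values in place held 68.9 and 65.1% of the RPM in PB, against 91.6 and 91.9% in B cells. Most immunoglobulin lines were moved against the header and were left out, and in PB replicate 2 all gene lines together summed to 824748 RPM, so part of its RPM stands in no gene line. Levels are given as RPM after median-of-ratios scaling, and changes as log2 fold changes on the log2(scaled RPM + 1) scale with their standard error, which understates the change of genes near 0. The B cell levels of Cdkn2b, Kdelr3, Chac1 and Wipi1 rest on a few reads, so the size of their change depends on the pseudocount. A gene was called, and is said to have risen or fallen, at an adjusted p under 0.05 in limma with an absolute log2 change of at least 1. The values compare shares of RNA: in bulk samples, fewer cells of a type and less RNA per cell cannot be told apart.

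The sorting markers went with the labels. Prdm1 (Entrez ID 12142; chromosome 10, 44437174 to 44528558, GRCm38.p6) stood at 248 and 340.5 RPM in PB and 8.47 and 7.22 RPM in B cells. Sdc1, which encodes CD138, stood at 13.6 and 12.9 RPM in PB and 3.75 and 1.90 RPM in B cells. Ptprc, the gene of B220, was lower in PB (354 and 332 RPM) than in B cells (886 and 861 RPM). The B cell libraries also held RNA of markers of other spleen cells. The summed level of 11 T, NK and myeloid markers was 8.14 and 8.91 RPM in PB, with 5 of the 11 at 0 in both libraries, and 330 and 399.7 RPM in B cells, with none at 0. Hemoglobin and other erythroid markers summed to 0.581 and 0 RPM in PB and to 20.9 and 31.6 RPM in B cells, although red cells were lysed before the sort. The 3 markers of plasmacytoid dendritic cells, which also carry B220, summed to 57.8 and 95.5 RPM in PB and to 47.6 and 104 RPM in B cells. Siglech fell (0.775 and 0.110 RPM in PB, 21.02 and 53.7 RPM in B cells). Bst2, which is not limited to these cells, was at 57.0 and 94.1 RPM in PB and at 14.5 and 28.9 RPM in B cells. The part of these cells in the falls described here was not tested.

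Of the 9442 genes, 1572 rose in PB (16.6%) and 1853 fell (19.6%), and the median change was -0.05. With the values as deposited, without scaling, 661 rose and 3944 fell and the median moved to -0.80, so rises made up 45.9% of the calls after scaling and 14.4% without it. The 2 PB libraries did not overlap with the 2 B cell libraries in 7291 genes (77.2%), and therefore a lack of overlap alone says little.

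**Figure D1:**
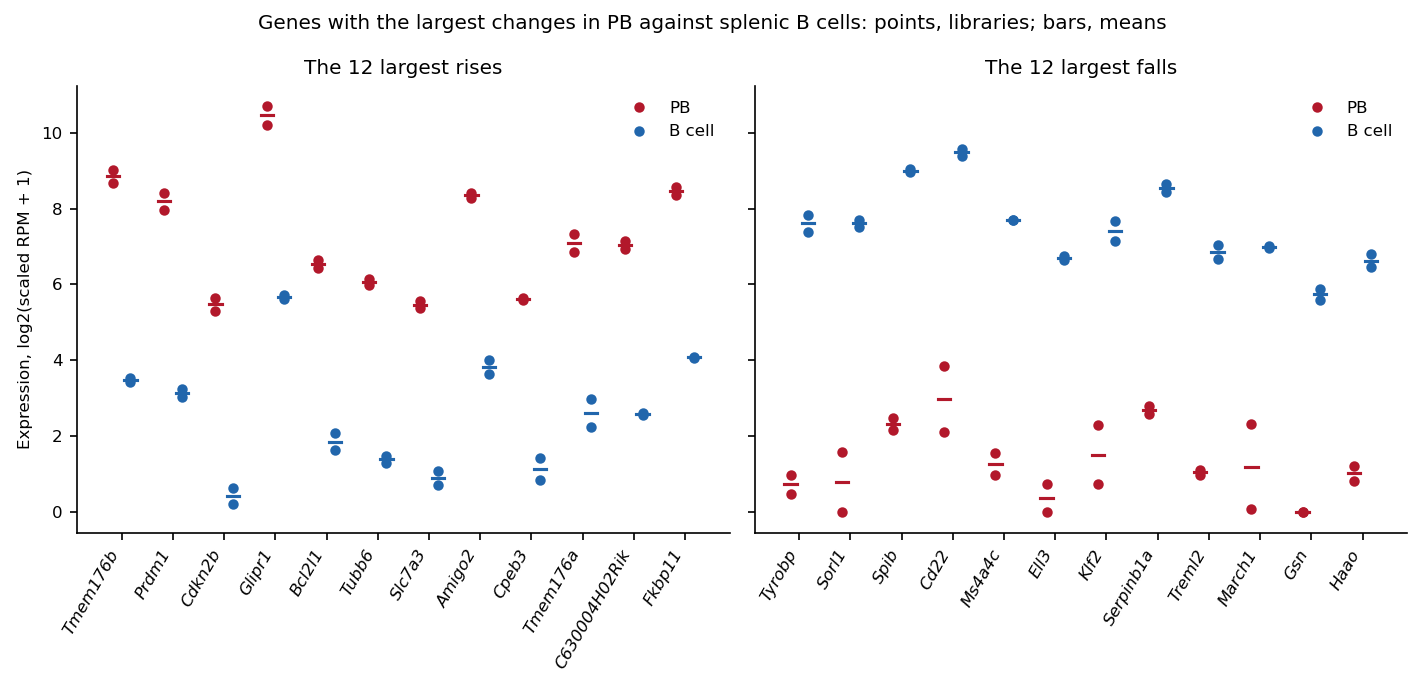
Levels of the 12 genes with the largest rises (left) and the 12 with the largest falls (right) among called genes with a group mean of at least 20 RPM, as log2(scaled RPM + 1) on the vertical axis. Points are libraries, PB in red left of B cells in blue, and bars are means of 2 libraries; Prdm1 is second among the rises (5.05) and Tyrobp first among the falls (-6.88).

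The largest rise was in Tmem176b, a multi-pass membrane protein, with 519 and 411 RPM in PB and 9.78 and 10.6 RPM in B cells (log2 5.37 ± 0.16, adjusted p = 1.6e-11). Its level in Blast was already 596 and 519 RPM. Its neighbour Tmem176a behaved alike (log2 4.47 ± 0.25 for PB against B cell, 4.76 for Blast against B cell). Prdm1 came next (log2 5.05 ± 0.24), but PB were sorted on its reporter, so this rise was largely fixed by the gate. It was lowest in Blast, gated as GFP-, at 2.93 and 2.03 RPM. Cdkn2b, which encodes the cyclin-dependent kinase inhibitor p15, had 38.4 and 49.2 RPM in PB and 0.163 and 0.570 RPM in B cells (log2 5.04 ± 0.33), in cells that also had more RNA of the cell cycle. Glipr1, a member of the CAP family, was the most abundant of the 12, at 1186 and 1654 RPM in PB against 48.1 and 52.1 RPM in B cells (log2 4.78 ± 0.18). Bcl2l1, the gene of the survival factor BCL-XL, reached 99.2 and 85.5 RPM in PB against 2.12 and 3.23 RPM in B cells (log2 4.68 ± 0.24). Bcl2 itself fell, at 9.73 and 7.26 RPM in PB against 80.2 and 81.4 RPM in B cells (log2 -3.12 ± 0.26). The arginine and lysine transporter Slc7a3 (log2 4.55 ± 0.32), the adhesion protein gene Amigo2 (4.52 ± 0.19), the translation regulator Cpeb3 (4.48 ± 0.36) and the ER prolyl isomerase Fkbp11 (4.39 ± 0.25) were also among the 12, whose largest adjusted p was 1e-07.

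The largest fall was in Tyrobp, the adaptor DAP12 of NK and myeloid receptors, with 0.388 and 0.990 RPM in PB and 166 and 228 RPM in B cells (log2 -6.88 ± 0.54); it belongs to the markers of other spleen cells above. Sorl1, a sorting receptor, followed with 0 and 1.98 RPM in PB and 207 and 183 RPM in B cells (log2 -6.83 ± 0.39). Next in size were B-lineage genes. Spib, an ETS factor of mature B cells, had 3.49 and 4.62 RPM in PB against 528 and 494 RPM in B cells (log2 -6.67 ± 0.20). Cd22, which dampens receptor signalling, had 13.6 and 3.30 RPM in PB against 670.5 and 762 RPM in B cells (log2 -6.50 ± 0.39). Ms4a4c (log2 -6.43 ± 0.28), the elongation factor gene Ell3 (-6.33 ± 0.48), Klf2, a factor of quiescent lymphocytes (-5.90 ± 0.61), Treml2 (-5.81 ± 0.31) and March1, whose product takes MHC class II off the surface (-5.78 ± 0.53), were among the 12 as well. Gsn, which encodes the actin-severing protein gelsolin, was listed at 0 in both PB libraries and at 47.6 and 58.1 RPM in B cells. The largest adjusted p of the 12 falls was 1.3e-06.

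**Figure D2:**
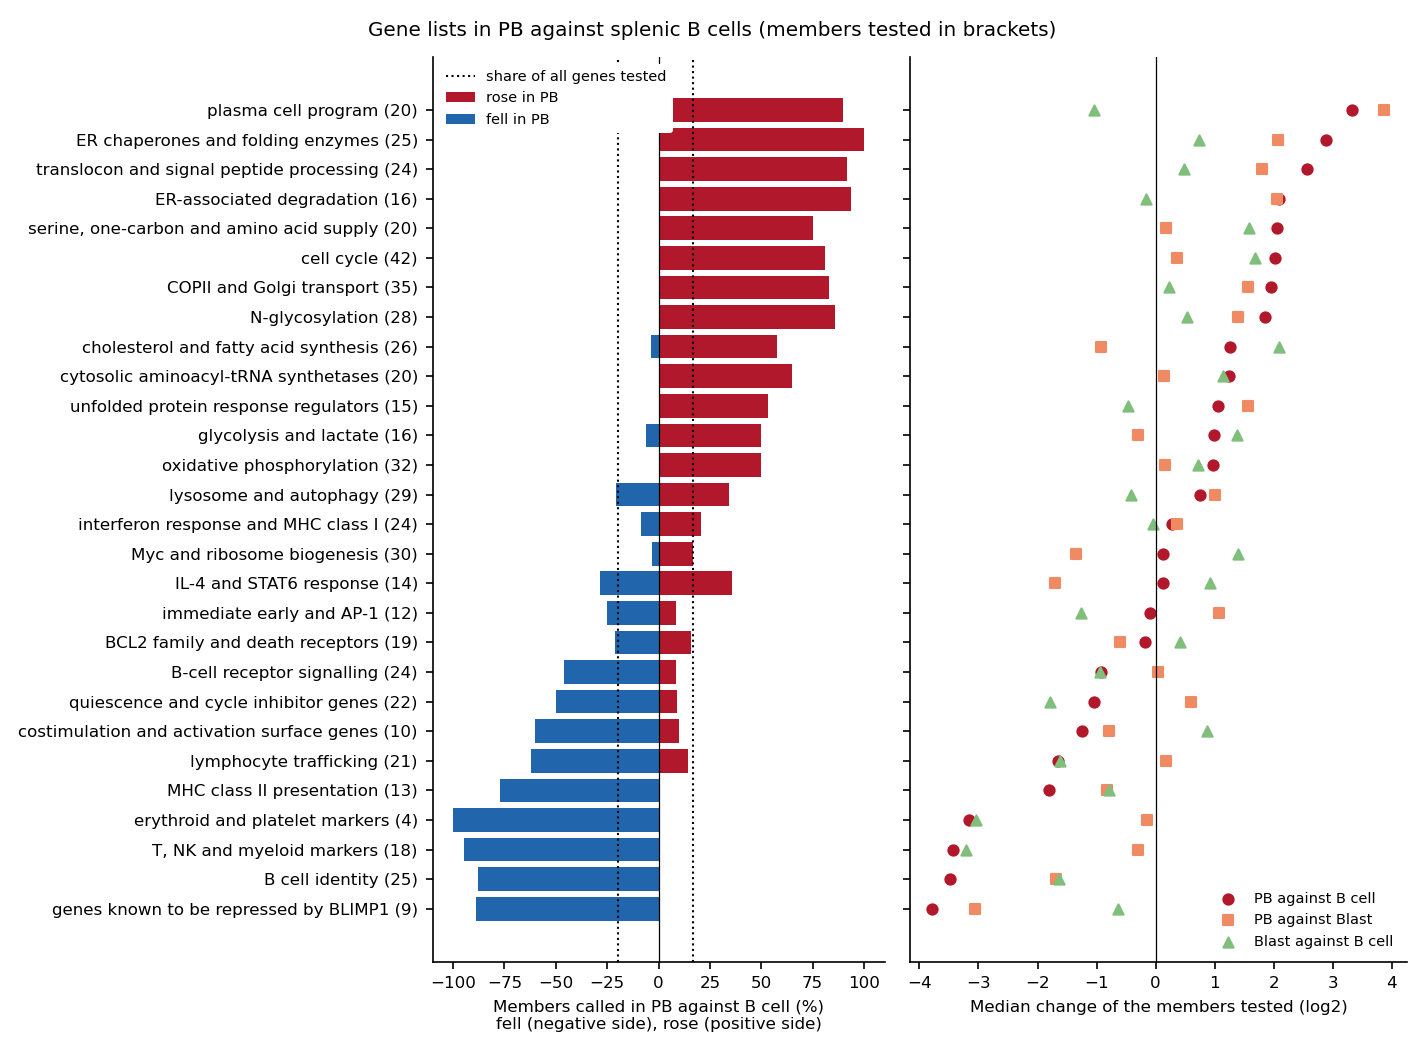
Left, share of the tested members of 28 gene lists that rose (red, to the right) or fell (blue, to the left) in PB against B cells, with dotted lines at the share of all genes tested (16.6 and 19.6%). Right, median log2 change of the members for PB against B cell, PB against Blast and Blast against B cell; the plasma cell program is at the top (median 3.32) and genes known to be repressed by BLIMP1 are at the bottom (-3.78).

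The machinery for making secreted protein rose almost in full. All 25 ER chaperones and folding enzymes rose (median change 2.89), as did 15 of 16 genes of ER-associated degradation (2.09), 22 of 24 of the translocon and signal peptide processing (2.56), 24 of 28 of N-glycosylation (1.84) and 29 of 35 of COPII and Golgi transport (1.95). None of these 5 lists had a gene that fell. Without scaling the counts were 23, 10, 16, 14 and 21 rises, with 1 fall in the transport list.

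Among the chaperones, Hspa5, which encodes the ER Hsp70 BiP, had 2969 and 2998 RPM in PB and 495 and 325 RPM in B cells (log2 2.89 ± 0.19). Hsp90b1, the ER Hsp90, had 6576 and 6314 RPM in PB and 579.7 and 423 RPM in B cells (log2 3.70 ± 0.20), the highest level of the list. The largest change of the list was that of Sdf2l1, a partner of BiP (219 and 295 RPM in PB, 13.4 and 12.4 RPM in B cells, log2 4.203 ± 0.20). The disulfide isomerase gene Pdia6 (3242 and 3053 RPM in PB, 308 and 225 RPM in B cells) and the secreted ER protein gene Manf (2024 and 2181 RPM in PB, 158 and 123 RPM in B cells) rose by 3.57 and 3.90. Neither gene overlapped between the groups. Canx, the lectin chaperone calnexin, had 95.2 and 97.5 RPM in B cells, 321 and 409 in Blast and 388 and 388 in PB. Its rise was called on the step from B cell to Blast (1.90) and not on the step from Blast to PB (0.10).

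In degradation, the mannosidase-like gene Edem1 had 1661 and 1713 RPM in PB and 92.1 and 78.3 RPM in B cells (log2 4.30 ± 0.16), the largest change of its list. Derl2 (83.7 and 63.1 RPM in PB, 41.4 and 42.2 RPM in B cells, log2 0.78 ± 0.23) did not reach the threshold. In the translocon list the signal sequence receptor gene Ssr3 had 1007 and 965 RPM in PB and 78.7 and 80.9 RPM in B cells (log2 3.61 ± 0.15). The channel subunit genes Sec61a1, Sec61b and Sec61g rose by 2.93, 3.07 and 3.06. Of the oligosaccharyltransferase, Rpn1 stood at 1574 and 1296 RPM in PB and 149.8 and 140.4 RPM in B cells (log2 3.29 ± 0.17). In that list the catalytic subunit genes differed in size of change, with Stt3a at log2 2.86 ± 0.16 and Stt3b at 1.20 ± 0.16; the difference between them was not tested.

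The COPII coat carries cargo out of the ER, and Sec24 genes encode its cargo adaptors. Sec24d had 242 and 251 RPM in PB and 17.3 and 13.3 RPM in B cells (log2 3.94 ± 0.28). Sec24a had 135 and 118 RPM in PB and 18.7 and 14.4 RPM in B cells (log2 2.87 ± 0.24). Sec24c was not called (119 and 111 RPM in PB, 105 and 96.2 RPM in B cells, log2 0.19 ± 0.19). Neither was Sec24b (29.5 and 30.7 RPM in PB, 54.6 and 58.5 RPM in B cells, log2 -0.89 ± 0.25). The PB libraries were below the B cell libraries for Sec24b and above them for the other 3; differences between the adaptors were not tested. The KDEL receptor genes, whose products bring escaped chaperones back, all rose: Kdelr1 by 2.07, Kdelr2 by 3.07 and Kdelr3 by 3.68, the last at 16.7 and 20.8 RPM in PB and under 1 RPM in B cells (0.489 and 0.570).

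Of 15 regulators of the unfolded protein response, which adjusts ER capacity, 8 rose and none fell (median 1.06, and 0.28 without scaling). Xbp1 had 2519 and 2534 RPM in PB and 192 and 155 RPM in B cells (log2 3.86 ± 0.16). Ern1, which encodes the sensor IRE1, rose (30.2 and 24.8 RPM in PB, 6.03 and 3.14 RPM in B cells, log2 2.40 ± 0.36). So did the sensor gene Atf6 (144 and 124 RPM in PB, 36.3 and 28.5 RPM in B cells, log2 2.02 ± 0.20). The third sensor gene, Eif2ak3 (PERK), was not called (62.4 and 87.2 RPM in PB, 46.1 and 41.0 RPM in B cells, log2 0.75 ± 0.24). Nor was Ddit3 (CHOP), a death-linked target of the PERK arm (17.1 and 27.7 RPM in PB, 25.7 and 20.0 RPM in B cells, log2 -0.06 ± 0.37). Atf4 rose by 1.06 ± 0.18, just past the threshold, and Chac1, a target of ATF4, by 4.10 ± 0.41 (22.5 and 21.1 RPM in PB, 0 and 0.760 RPM in B cells).

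The ER stress response element (ERSE), read by ATF6 and XBP1 together with NF-Y, has the letters CCAAT, any 9 bases, and CCACG. RefSeq promoters of GRCm38.p6 (250 bases before to 50 after the start) were matched for 20 of the 25 chaperone genes, and 7 of the 20 held it on either strand (35%), against 37 of all 27025 promoters in the table (0.137%) and 13 of the 7452 promoters matched to the 9442 genes tested (0.174%). In degradation 2 of 13 matched promoters held it. Here and below these counts are of genes: a gene with several promoters counted once, as a match if any of them held the letters. The following 6 windows, written 5′ to 3′ on the strand of the gene with the element in capitals, set side by side genes that share the letters and differ in path. Hsp90b1 held 2 matches, of which 1 is shown. A match describes the letters and is not a shown binding site.
Hspa5, chr2:34771995-34772073, plus strand: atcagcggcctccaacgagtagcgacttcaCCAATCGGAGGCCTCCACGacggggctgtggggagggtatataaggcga
Hsp90b1, chr10:86705608-86705686, minus strand: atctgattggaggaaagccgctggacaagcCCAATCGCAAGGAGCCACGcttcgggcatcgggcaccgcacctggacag
Pdia6, chr12:17266461-17266539, plus strand: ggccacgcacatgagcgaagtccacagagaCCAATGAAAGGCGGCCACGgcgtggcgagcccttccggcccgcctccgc
Canx, chr11:50325770-50325848, minus strand: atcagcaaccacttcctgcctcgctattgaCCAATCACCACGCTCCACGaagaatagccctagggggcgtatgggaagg
Ero1lb, chr13:12565652-12565730, plus strand: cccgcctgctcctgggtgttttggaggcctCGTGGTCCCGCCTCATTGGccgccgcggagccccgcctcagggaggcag
Creld2, chr15:88819490-88819568, plus strand: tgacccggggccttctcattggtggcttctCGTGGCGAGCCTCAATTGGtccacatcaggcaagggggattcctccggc
The element lies in the forward direction in Hspa5, Hsp90b1, Pdia6 and Canx and in the reverse direction in Ero1lb and Creld2. On the step from Blast to PB these genes changed by 2.04 (Hspa5), 3.43 (Hsp90b1), 2.38 (Pdia6), 0.10 (Canx), 4.03 (Ero1lb) and 2.82 (Creld2). The Creld2 window is also upstream of Alg12, a mannosyltransferase gene that runs the other way. Creld2 had 505 and 541 RPM in PB and 44.8 and 32.7 RPM in B cells (log2 3.74 ± 0.25). Alg12 had 9.89 and 12.9 RPM in PB and 6.95 and 6.27 RPM in B cells and was not called (log2 0.69 ± 0.33, adjusted p = 0.094).

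The plasma cell program rose in 18 of 20 tested genes (median 3.32), and 15 rose and 1 fell without scaling. The list holds Prdm1 and Sdc1. PB were sorted on the reporter of the first and the product of the second, so the rises of both were largely fixed by the gate. Irf4 had 457 and 407 RPM in PB and 80.5 and 75.4 RPM in B cells (log2 2.45 ± 0.17). Bhlha15, which encodes the secretory cell factor MIST1, had 231 and 232 RPM in PB and 9.29 and 11.8 RPM in B cells (log2 4.34 ± 0.31). Ell2, an elongation factor linked to the switch to secreted heavy chain, had 569 and 667 RPM in PB and 50.0 and 47.1 RPM in B cells (log2 3.64 ± 0.16). Mzb1, listed under its older name 2010001M09Rik and encoding a chaperone of IgM assembly, had 8444 and 7428 RPM in PB and 515 and 529 RPM in B cells (log2 3.92 ± 0.20). Igj, the joining chain of IgM, was the most abundant, at 18377 and 18044 RPM in PB against 1471 and 1335 RPM in B cells (log2 3.70 ± 0.31). The 2 members that were not called were Tnfrsf17, the BCMA receptor of long-lived plasma cells (12.02 and 8.62 RPM in PB, 4.56 and 5.89 RPM in B cells), and Zbtb20 (15.5 and 13.2 RPM in PB, 19.9 and 27.6 RPM in B cells).

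Mature B cell genes fell. In the B cell identity list 22 of 25 fell and none rose (median -3.48). Besides Spib and Cd22, the largest falls of the list, a fall was called for Faim3, the Fc receptor of IgM (59.3 and 50.8 RPM in PB, 1913 and 1654 RPM in B cells, log2 -4.99 ± 0.17). Pax5, the factor that keeps B cell identity, had 9.30 and 12.2 RPM in PB and 139 and 183 RPM in B cells (log2 -3.78 ± 0.23). The 3 that were not called were Blnk (502 and 459 RPM in PB, 392 and 381 RPM in B cells), Btk (11.2 and 5.61 RPM in PB, 14.2 and 13.1 RPM in B cells) and Cd79a, a receptor chain (1342 and 1329 RPM in PB, 2905 and 2409 RPM in B cells, log2 -0.99 ± 0.17). Its partner Cd79b fell (745 and 760.0 RPM in PB, 2725 and 2707 RPM in B cells, log2 -1.85 ± 0.18).

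Known BLIMP1 targets of repression made a list of 9 tested genes, of which 8 fell and none rose (median -3.78). Among them, beside Spib and Pax5, were Ciita, the MHC class II transactivator (3.49 and 0.990 RPM in PB, 123 and 121 RPM in B cells, log2 -5.36 ± 0.31), Bach2 (-4.46), Id3 (-4.35), Bcl6 (-3.48) and Stat6 (-2.61). Myc, the ninth, was not called, with 32.6 and 27.1 RPM in PB and 39.4 and 44.7 RPM in B cells (log2 -0.49 ± 0.26).

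Of 13 genes of antigen presentation on MHC class II 10 fell and none rose (median -1.80), and all 13 fell without scaling. The genes of peptide editors were among them. H2-Oa had 11.6 and 10.2 RPM in PB and 394 and 384 RPM in B cells (log2 -5.03 ± 0.18). H2-DMb1 had 32.8 and 37.8 RPM in PB and 268 and 269 RPM in B cells (log2 -2.90 ± 0.17). The chain genes H2-Aa, H2-Eb1 and H2-Eb2 fell as well (log2 -1.37, -1.28 and -1.22). The chain gene H2-Ab1 was not called (2307 and 2387 RPM in PB, 4492 and 4220.1 RPM in B cells, log2 -0.89 ± 0.18). Nor was the invariant chain gene Cd74 (1198 and 1488 RPM in PB, 2007 and 1899 RPM in B cells, log2 -0.55 ± 0.17). The third that was not called was Ctss, which encodes the protease cathepsin S (log2 -0.33 ± 0.16).

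Signalling and homing genes split. In B-cell receptor signalling 11 of 24 fell and 2 rose (median -0.92). The kinase genes Blk (-3.90 ± 0.18) and Lyn (-2.74 ± 0.22) and the phosphatase gene Ptpn6 (-3.33 ± 0.19) fell, and Cd81 (1.44 ± 0.16) and Rasgrp3 (1.17 ± 0.21) rose. In lymphocyte trafficking 13 of 21 fell and 3 rose (median -1.66). The follicle and lymph node receptors Ccr7 (2.33 and 1.65 RPM in PB, 101 and 103 RPM in B cells) and Cxcr5 (79.1 and 63.1 RPM in PB, 267 and 246 RPM in B cells) fell (log2 -5.12 and -1.84). Ccr10, a mucosal homing receptor of plasma cells, rose (19.8 and 17.2 RPM in PB, 1.30 and 1.90 RPM in B cells, log2 2.91 ± 0.37). So did Selplg, the ligand of P-selectin (301 and 335 RPM in PB, 65.8 and 64.5 RPM in B cells, log2 2.27 ± 0.21). Of 10 costimulation and activation genes 6 fell (median -1.24) and 1 rose, the hyaluronan receptor gene Cd44 (257 and 279 RPM in PB, 46.6 and 58.3 RPM in B cells, log2 2.34 ± 0.17). The ICOS ligand gene Icosl fell most (0.775 and 2.64 RPM in PB, 67.8 and 66.1 RPM in B cells, log2 -4.74 ± 0.41).

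Proliferation genes were higher in PB than in B cells. Of 42 cell cycle genes 34 rose against B cells and none fell (median 2.02, and 25 rises without scaling). In Blast against B cell 37 of the 42 rose (median 1.68), against 13.5% of all genes tested. In PB against Blast 6 of the 42 rose, a share near the 13.1% of all genes tested. Mki67, a marker of cycling cells, was at 489.6 and 503 RPM in PB and 98.0 and 74.4 RPM in B cells (log2 2.52 ± 0.16). The cyclin gene Ccnb1 was at 127 and 233 RPM in PB and 16.46 and 16.53 RPM in B cells (log2 3.31 ± 0.24). Of the S-phase helicase genes, Mcm3, Mcm4 and Mcm7 were not called (0.83, 0.98 and 0.90), and Mcm2, Mcm5 and Mcm6 rose (1.22, 1.07 and 1.77). Among 22 quiescence and cycle inhibitor genes 11 fell and 2 rose (median -1.04), the inhibitor genes Cdkn1a (40.3 and 40.6 RPM in PB, 2.44 and 1.14 RPM in B cells, log2 3.93 ± 0.30) and Cdkn2c (log2 1.30 ± 0.40). Btg1, which restrains lymphocyte growth, fell (36.1 and 47.2 RPM in PB, 800.0 and 801 RPM in B cells, log2 -4.25 ± 0.17).

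Genes of amino acid supply were also higher. Of 20 genes of serine, one-carbon and amino acid supply 15 rose and none fell (median 2.05), and of 20 cytosolic aminoacyl-tRNA synthetases 13 rose and none fell (median 1.24, and 2 rises without scaling). Asns, asparagine synthetase, had 164 and 138 RPM in PB and 6.36 and 7.41 RPM in B cells (log2 4.26 ± 0.24). Psat1 of serine synthesis had 280.3 and 256 RPM in PB and 44.5 and 42.2 RPM in B cells (log2 2.60 ± 0.16). In oxidative phosphorylation 16 of 32 rose (median 0.96), but only 2 did without scaling and 5 with quantile normalization, so this count rests on the scaling. In glycolysis 8 of 16 rose (median 0.99), and 4 did without scaling. Pdk1, whose product inhibits pyruvate dehydrogenase, fell (16.3 and 13.9 RPM in PB, 34.1 and 53.8 RPM in B cells, log2 -1.45 ± 0.29). In Blast against B cell 15 genes of amino acid supply, 12 synthetase genes, 10 of oxidative phosphorylation and 9 of glycolysis rose, against 13.5% of all genes tested. In PB against Blast the rises of these lists were 2, 2, 2 and 0, and 3 genes of amino acid supply fell. Over all genes tested 13.1% rose and 10.7% fell in that comparison, so these small counts say little about the lists.

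To separate genes at the B cell level in PB from those past it, each gene was compared over a first leg (Blast against B cell) and a second leg (PB against Blast). Blast, prePB and PB were fractions sorted after the same 3 days, so no gene was followed in time. Words such as step, leg, path, returned, passed and reversed name differences between these groups. The legs share the Blast libraries and the direct comparison shares the B cell libraries with the first leg, so opposite signs of the legs are partly built in and are given as a description. On the first leg 1270 genes rose (13.5%) and 1819 fell (19.3%), and on the second 1241 rose (13.1%) and 1008 fell (10.7%). Both legs were called in opposite directions in 781 genes (8.27%), and in the same direction in 240 (2.54%). A single leg was called in 2068 genes for the first (21.9%) and 1228 for the second (13%), and neither in 5125 (54.3%). The filter used PB and B cell libraries only, so genes seen in Blast alone were not tested. With 5 RPM in 2 of the 6 PB, B cell and Blast libraries, the first leg had 1435 rises and 1816 falls. The second leg then had 1237 rises and 1120 falls.

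Of the 781 genes, 123 (1.3%) passed the B cell level, called in PB against B cell on the other side of it. Another 118 (1.25%) reversed in part, still called on the side of the first leg. In 293 (3.1%) the level returned: PB was not called against B cells and the 95% confidence interval of the change lay within 1 log2 unit of 0. The remaining 247 (2.62%) were undecided because their interval was wider. At the border, D8Ertd82e counted as returned with -0.49 (interval -0.995 to 0.00803) and Mrps6 as undecided with 0.23 (interval -0.539 to 1.002). The returned class depends on the scaling, since without scaling the median gene lies 0.80 lower in PB: of the 293 genes 45 were still in the class then, out of 375. The class held 163 genes without B cell replicate 1 and 147 without B cell replicate 2. Of the 123 that passed 70 did so without scaling, out of 103.

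**Figure D3:**
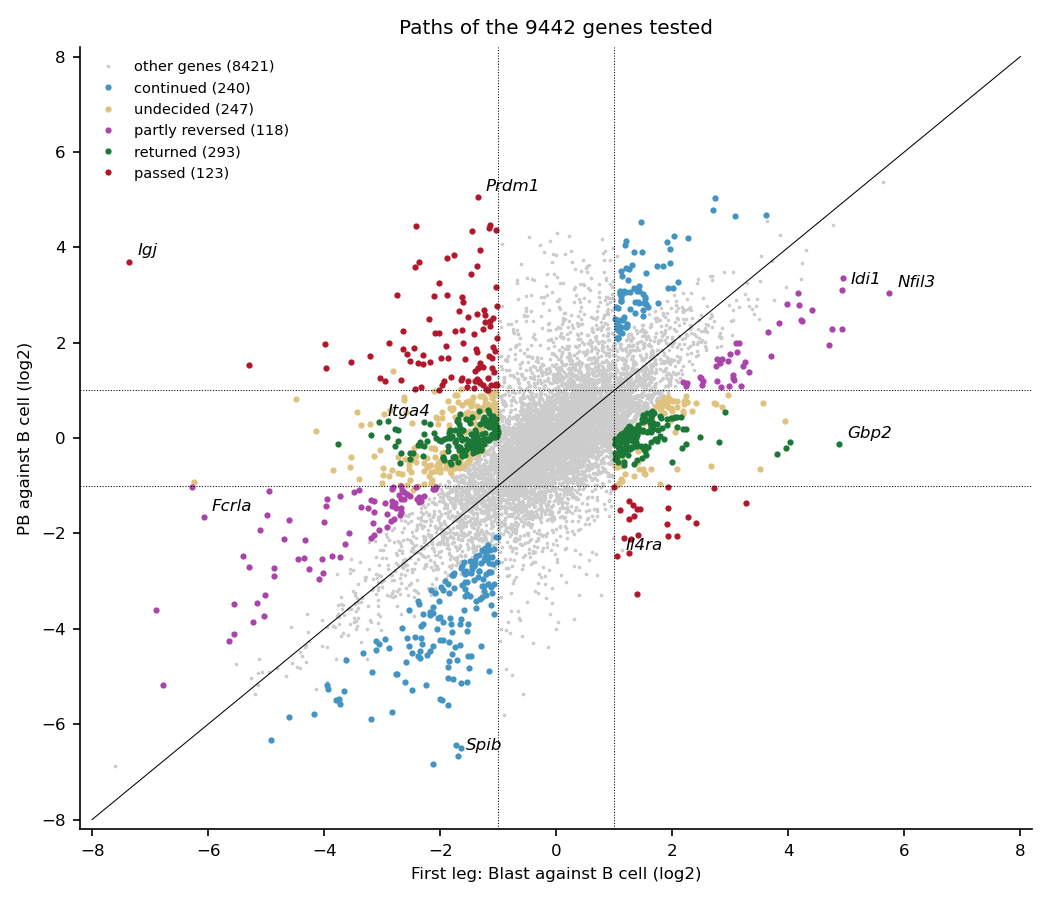
Each of the 9442 genes by its change on the first leg (Blast against B cell, horizontal, log2) and in PB against B cell (vertical, log2), with dotted lines at 1 and -1 and a diagonal where PB equals Blast. Returned genes (293, green) lie along the horizontal zero, passed genes (123, red) lie on the opposite side of it from their first leg, and partly reversed genes (118, purple) lie between zero and the diagonal; both axes use the same B cell libraries.

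Genes that rose in Blast and returned (145) were led by Gbp2, an interferon-inducible GTPase. It had 24.1 and 21.8 RPM in B cells, 689 and 707 in Blast, 90.8 and 51.5 in prePB and 20.5 and 21.5 in PB. Its first leg of 4.87 was followed by -4.99 and PB differed from B cells by -0.12 ± 0.22. Bcl2a1a, Bcl2a1b and Bcl2a1d, near-identical copies of the survival gene A1 whose reads may be split between them, had first legs of 3.95, 3.80 and 4.03 and ended at -0.21, -0.33 and -0.09 against B cells. Without scaling Bcl2a1b fell (-1.11). Of the 19 genes of the BCL2 family and death receptors, which include these and Bcl2l1 and Bcl2, 3 rose (15.8%) and 4 fell (21.1%). These shares were near those of all genes tested (16.6 and 19.6%), and the median in PB against B cell was -0.17. Of the 19 genes 5 returned, against 3.1% of all genes tested. Of these 5, 3 are the Bcl2a1 copies, so they are fewer than 5 independent genes. Without scaling no Bcl2a1 copy stayed in the class. Il4i1, an IL-4-induced amino acid oxidase, had 143 and 134 RPM in B cells, 512 and 601 in Blast and 106 and 89.5 in PB (log2 -0.51 ± 0.18 for PB against B cell). Syngr2, a vesicle membrane protein gene, had 134 and 125 RPM in B cells, 980.3 and 967 in Blast and 192 and 187 in PB, and with Itga4 was 1 of 2 among the 12 returned genes chosen for their first leg that stayed in the class without scaling.

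Myc and ribosome biogenesis was the list with most returned genes, 12 of 30. Its median was 1.39 in Blast against B cell and 0.13 in PB against B cell. Between PB and B cells 5 genes rose (16.7%) and 1 fell (3.33%), against 16.6 and 19.6% of all genes tested. The rises were Srm (2.47), Odc1 (1.74), Cad (1.65), Mxd3 (1.42) and Gnl3 (1.41), and the fall was Max (-1.60). Mxd3 and Max belong to the Myc part of the list. The nucleolar gene Npm1 had 929 and 893 RPM in B cells, 4162 and 3904 in Blast and 1188 and 1280.2 in PB. Fbl, which methylates ribosomal RNA, had 151 and 128, 263 and 393 and 115 and 119.7 RPM in the same order. Myc moved the same way (1.15 on the first leg, -1.63 on the second) and was undecided. Members with a second leg near 0 were Srm and Odc1, which make polyamines (0.00 and 0.08 on the second leg), and Cad, which starts pyrimidine synthesis (0.02). Without scaling the list's median in PB against B cell was -0.59, with 1 rise and 7 falls, and 2 of the 12 stayed in the returned class while 3 fell.

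**Figure D4:**
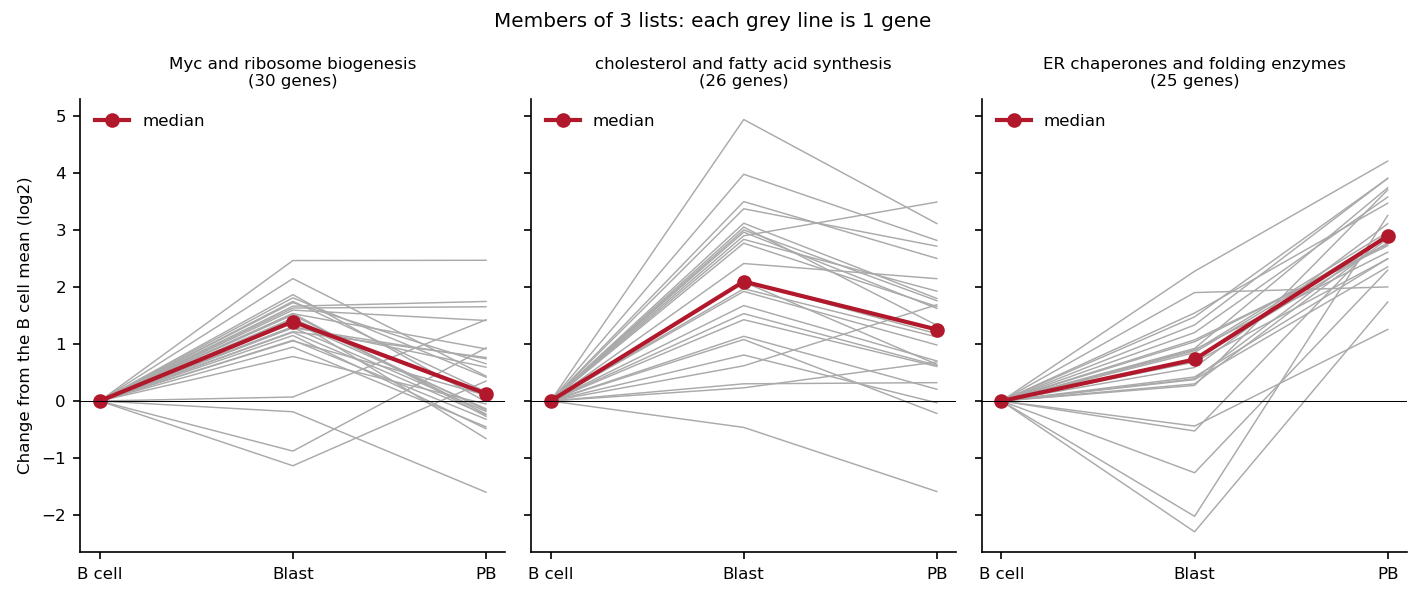
Change from the B cell mean (log2) in Blast and PB for the members of 3 lists, each grey line 1 gene and the red line the median. Myc and ribosome biogenesis goes up in Blast and comes back (median 1.39, then 0.13). Cholesterol and fatty acid synthesis comes back in part (2.09, then 1.25), and ER chaperones rise mostly on the second leg (0.73, then 2.89).

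Genes that fell in Blast and returned (148) included Itga4, the alpha 4 integrin chain, with 156 and 192 RPM in B cells, 21.9 and 18.2 in Blast, 54.2 and 57.1 in prePB and 209 and 228 in PB (first leg -3.05, PB against B cell 0.34 ± 0.18). Its partner genes were not called in PB against B cell (Itgb1 0.11) or fell (Itgb7 -4.57). Kctd12 (-3.76, then 3.63) and the nuclear RNA Neat1 (-2.92, then 2.94) had legs of the same signs. Both became undecided without either B cell library, and Kctd12 also with quantile normalization, while Itga4 stayed in the class in these settings. Short-lived RNAs were among them: Zfp36, which encodes the RNA decay factor tristetraprolin, had 161 and 172 RPM in B cells, 30.9 and 32.9 in Blast and 155 and 157 in PB (PB against B cell -0.09 ± 0.17). Ier2 and Btg2 (PB against B cell -0.05 and 0.39) and the survival gene Mcl1 (0.41) returned as well. Of 12 immediate early genes 3 returned, 1 rose (8.33%) and 3 fell (25%), with a median of -0.10. Over all genes tested 16.6% rose and 19.6% fell. Fos was not called and its PB libraries disagreed, at 236 and 33.3 RPM in PB against 31.9 and 34.0 RPM in B cells.

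Of the 123 genes that passed the B cell level, 100 were low in Blast and then above B cells, and 23 were high in Blast and then below. The first group held 9 of the 20 plasma cell genes. Igj had a second leg larger than that of the others named, with 1471 and 1335 RPM in B cells, 13.3 and 4.05 in Blast, 1999 and 2102 in prePB and 18377 and 18044 in PB (first leg -7.37, second leg 11.07). Prdm1, Bhlha15, Fkbp11, Fam46c and Creb3l2 had first legs of -1.36, -1.44, -1.17, -1.04 and -1.89 and second legs of 6.40, 5.79, 5.56, 5.40 and 4.89. With quantile normalization Fkbp11 and Fam46c left the class, as their first leg was no longer called, and Fam46c also left it without B cell replicate 2. The oxidoreductase gene Txndc5 (367 and 379 RPM in B cells, 71.2 and 117 in Blast, 3936 and 3223 in PB) and the oxidase gene Ero1lb (137 and 127, 31.8 and 21.5 and 460.3 and 424 RPM in the same order) passed too, 2 of 3 chaperone genes that did. Blast was gated as GFP- and PB as GFP+, while the B cell sort had no gate on the reporter. The path of Prdm1 was therefore largely set by the gates. B cell libraries held the plasma cell markers Sdc1 and Tnfrsf17 at 3.75 and 1.90 RPM and 4.56 and 5.89 RPM, both listed at 0 in the Blast libraries, and whether cells of the plasma cell type in the B220 sort made the first-leg falls was not tested.

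Among the 23 genes of the second group were receptors of activated B cells. Il4ra, the receptor chain of IL-4, had 139 and 122 RPM in B cells, 223 and 331 in Blast, 71.8 and 112 in prePB and 23.6 and 21.8 in PB (first leg 1.05, second leg -3.52, PB against B cell -2.47 ± 0.22). Its first leg was just past the threshold, and the gene left the class without scaling, with quantile normalization and without B cell replicate 2. Cd83 (205 and 175 RPM in B cells, 793 and 636 in Blast, 46.1 and 62.4 in PB), Cd86, a ligand of CD28 (-1.02 in PB against B cell), and the death receptor gene Fas (-1.46) made 3 of the 10 costimulation and activation genes. Fam101b had the largest fall of those chosen by size (-3.27 ± 0.38), and the paxillin family gene Lpxn (-2.40 ± 0.20), Stat4 (-2.09 ± 0.27) and Kynu, an enzyme of tryptophan breakdown (-2.06 ± 0.35), were also among them. Without B cell replicate 2 the whole class held 75 genes, and Fam101b, Chst10 and Stat4 were not in it.

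Partly reversed genes kept a share of the blast change. Of the 41 that had risen, Nfil3, a factor induced by IL-4, had 3.10 and 1.33 RPM in B cells, 141 and 192 in Blast and 28.3 and 20.8 in PB (PB against B cell 3.03 ± 0.30). In the IL-4 and STAT6 list 4 of 14 did this, among them Cish, a feedback inhibitor of cytokine receptors (first leg 4.41, PB against B cell 2.68), and Batf (3.32, then 1.38). The list as a whole had 5 rises and 4 falls and a median of 0.12 that became -0.64 without scaling. Cholesterol and fatty acid synthesis held 7 of the 41. Idi1 had 7.17 and 11.8 RPM in B cells, 292 and 332 in Blast and 93.0 and 81.9 in PB. Cyp51 had 16.8 and 15.8, 313 and 234 and 144 and 101 RPM in the same order. Over the 26 genes of that list the median was 2.09 in Blast against B cell and 1.25 in PB against B cell, with 15 rises and 1 fall between PB and B cells, that of the desaturase gene Scd1 (166 and 69.2 RPM in PB, 351 and 300.1 RPM in B cells). Insig1, which holds the sterol regulators in the ER, was higher in PB than in Blast (149 and 101 RPM in PB, 81.8 and 80.3 RPM in Blast), a step that was not called.

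Of the 77 genes that had fallen and reversed in part, Fcrla, an ER-resident Fc receptor-like protein of B cells, had 476 and 508 RPM in B cells, 9.01 and 4.31 in Blast and 143 and 167 in PB (PB against B cell -1.66 ± 0.27). S1pr1, the receptor that lets lymphocytes leave tissue, had 259 and 251, 2.25 and 7.09 and 8.92 and 17.2 RPM in the same order (-4.25 ± 0.39), and left the class when either B cell library was left out. The kinase gene Syk (241 and 238, 41.2 and 25.8 and 79.5 and 98.1 RPM) and the complement receptor gene Cr2 (159 and 140.2, 2.70 and 1.77 and 12.4 and 12.5 RPM) followed. Acp5 and Abca1, with PB against B cell changes of -3.60 and -4.10, are also expressed in macrophages, whose markers were in the B cell libraries; their source was not tested.

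**Figure D5:**
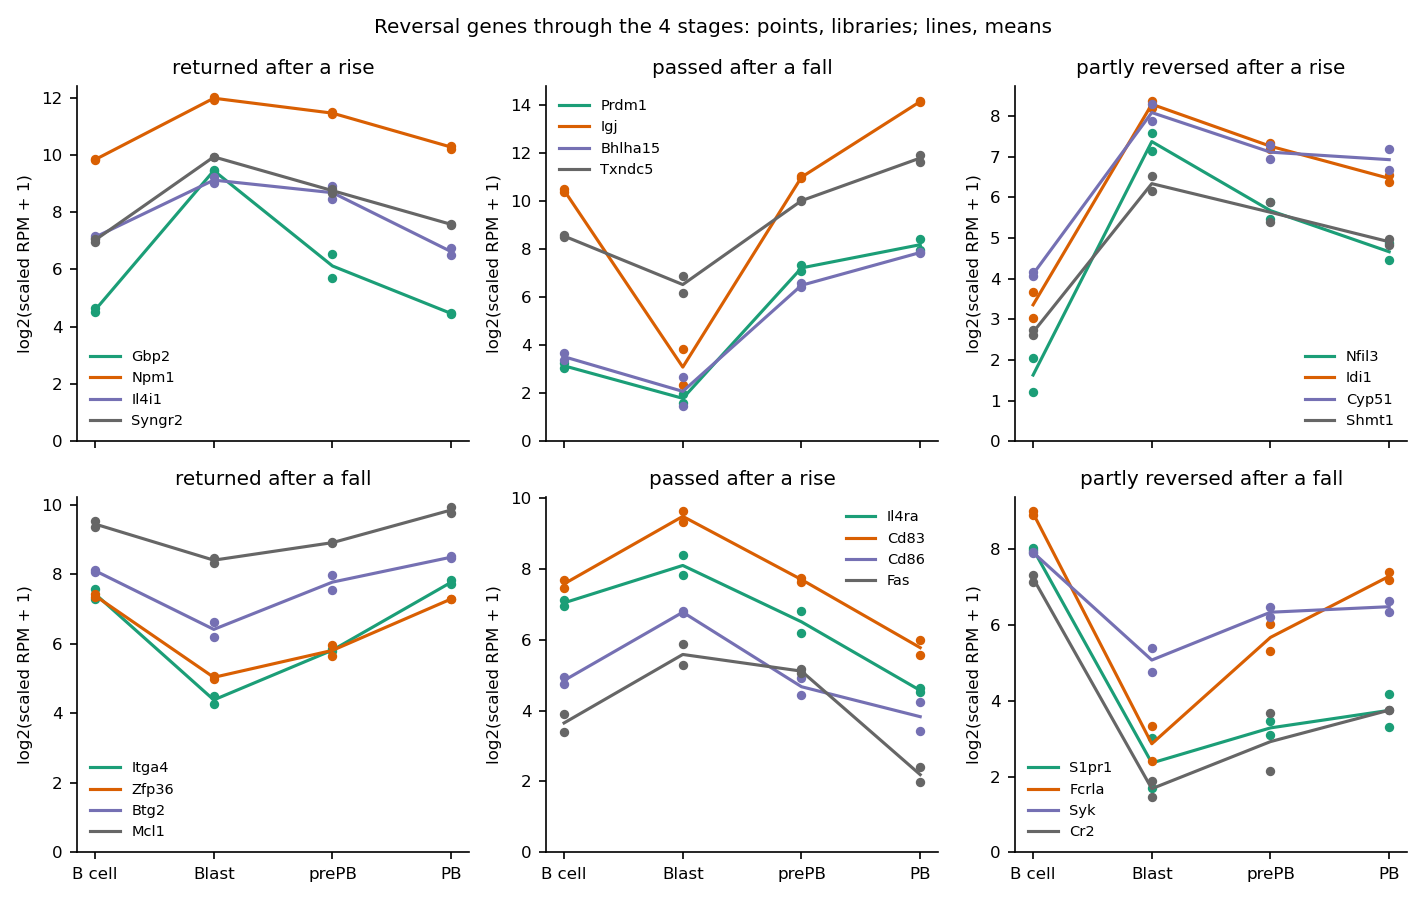
Levels of 4 genes of each reversal class in B cells, Blast, prePB and PB as log2(scaled RPM + 1), points for libraries and lines for means of 2. The returned genes end near their B cell level (Gbp2 at 20.5 and 21.5 RPM in PB), the passed genes end beyond it (Prdm1 at 248 and 340.5 RPM in PB), and the partly reversed genes stop short of it (Nfil3 at 28.3 and 20.8 RPM in PB).

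The prePB libraries did not define the classes. Their mean lay between those of Blast and PB in 99 of the 100 genes that passed upwards and in all 23 that passed downwards, and in 139 of 148 and 138 of 145 returned genes after a fall and after a rise. Over all 9442 genes it did so in 5539 (58.7%), and in 93.8% of the genes called on the second leg only, so genes with a called second leg in general had prePB in between. On the linear RPM scale, on which high levels weigh most, prePB was nearer to PB than to Blast in 19 of the 23 that passed downwards and in 19 of the 100 that passed upwards.

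Of 24 interferon response and MHC class I genes 5 rose (20.8%) and 2 fell (8.33%), against 16.6 and 19.6% of all genes tested. Their median was 0.28, and -0.51 without scaling. B2m, the light chain of MHC class I, rose (11828 and 14729.5 RPM in PB, 3928 and 4048 RPM in B cells, log2 1.73 ± 0.25), and Isg15 rose (log2 2.47 ± 0.32) while Ifit3 fell (log2 -4.39 ± 0.51). Of 29 lysosome and autophagy genes 10 rose (34.5%) and 6 fell (20.7%), with a median of 0.74, and 0.02 without scaling. The autophagy gene Wipi1 (23.3 and 19.5 RPM in PB, 0.815 and 0 RPM in B cells, log2 4.05 ± 0.53) and Lamp2 (log2 2.89 ± 0.17) rose most in size with Gla. Of the 18 T, NK and myeloid markers tested 17 fell (median -3.43), and 6 more were under the filter. The exception, Cd8b1, was low in both groups (3.49 and 7.26 RPM in PB, 7.17 and 8.08 RPM in B cells). All 4 erythroid markers tested, which are hemoglobin genes, fell (median -3.15). Markers near 0 in PB could pass the filter only through the B cell libraries, so these falls were largely fixed in advance. No platelet marker reached the filter, and Pf4 and Ppbp summed to 8.53 and 0 RPM in PB and to 0.326 and 0.760 RPM in B cells.

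The motif GTGAAAG, the core of the letters bound by BLIMP1, was looked for in the same promoter windows on both strands. It was in 13 of 119 matched promoters of genes that returned after a rise (10.9%), in 0 of 81 of genes that passed upwards, and in 1322 of all 27025 promoters in the table (4.89%). Over the genes tested the share was 4.32%, and over the falls in PB against B cell 5.66%. It was 13.3% in genes partly reversed after a rise (4 of 30) and 3.28% in genes that returned after a fall (4 of 122). None of 15 genes that passed downwards held the motif, and 4 of 133 that fell on both legs did (3.01%). Of the 9 known BLIMP1 targets of repression 6 had a matched promoter and none of the 6 held the motif, and with 6 of 9 matched that share is void. The 13 included Gbp2, the 3 Bcl2a1 copies, Bcl2l11 and the neighbouring chaperone genes Hspd1 and Hspe1, which had means of 165 and 281 RPM in B cells, 769.6 and 1110.0 RPM in Blast, and 187 and 377 RPM in PB. Copies and neighbours share sequence, so these are fewer than 13 independent promoters. The core TGACGTG of the unfolded protein response element was in 6 of 31 matched promoters of COPII and Golgi transport genes (19.4%) in 601 of all promoters (2.22%) and in 279 of the 7452 matched to genes tested (3.74%). Other groups also stood above these shares, with 5.81% of the rises in PB against B cell and 9.84% of the genes that returned after a fall. The genes were Sec24d, Kdelr3, Sec23a, Copb2, Stx5a and Copb1, with changes of 3.94, 3.68, 2.02, 1.66, 1.33 and 1.29 in PB against B cell. These matches are letters in a window of fixed length and show no binding.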

How the data were processed

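The deposited values are a signal in RPM, reads per 1000000, per gene from 3′ RNA-seq amplified from 1 ng of RNA; per the submitters' processing notes the authors used cutadapt 1.11, TopHat 1.4.1, Bowtie 1.0.1 and Cufflinks 2.2.0 with mm10, whose roles are not given in the sources used here. RPM were not treated as counts, since in the B-lineage libraries 82.9 to 89.4% of values from 1 to 20 reads lay within 0.02 of a whole read (73.2 to 82.9% with values under 1 read included). Of 26310 lines, 1164 stood out of step with the header (to the left, 501 genes by 1 column, 513 by 2) and 25146 were used. Values were scaled by median of ratios (size factors 0.731 and 0.710 in PB, 1.24 and 1.27 in B cells), transformed as log2(scaled RPM + 1) and fitted with limma 3.58.1 (trend, R 4.3.3; Python 3.11.15, pandas 2.3.3) over 8 libraries in 4 groups, with Benjamini-Hochberg adjustment over 9442 genes. The steps were tested on simulated data. Replicates of a group correlated at 0.969 to 0.979. Differences between same-numbered replicates correlated at 0.0237 to 0.0372 between B cells and the other groups. Among the stimulated groups they correlated at 0.201 (Blast and prePB), 0.132 (prePB and PB) and 0.0792 (Blast and PB). These values do not settle whether the numbers pair the libraries, and the fit used no replicate block. Genes were named as the 12 largest rises and 12 largest falls with a higher mean of at least 20 RPM, as the 6 leading genes of each path class and direction, and as members of 28 lists. The members and lists were chosen with earlier results of these data known. Promoters and coordinates are RefSeq's for GRCm38.p6, the assembly of mm10. Alternatives are given in the closing section. Intervals and read steps cover this measurement only, and depth limits genes of a few RPM, where 1 read weighs most. Some genes of the lists are not reported here.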

Additional observations from a re-analysis of the deposited data

Results flagged for a closer look

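Signal lay outside the lines compared, in 10 immunoglobulin lines that were moved by 1 column against the header and were higher in PB than in B cells once set back. The position of such lines is less certain than that of the others, and their values took no part in the fit. The heavy chain line Ighm had a mean of 134428 scaled RPM in PB (129298 and 139557) and 5503 in B cells (6162 and 4844), 24.4 times as much, with 792 and 887 in Blast. Among switched heavy chains, Ighg1 had a mean of 1889 in PB and 153 in B cells, and Ighg3 1438 in PB, against 393 and 90.2 in the B cell libraries, which disagree. Ighe had a mean of 38.4 in PB and values of practically 0 in B cells; it was higher in prePB (138 and 119) and in Blast (97.2 and 109).

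The kappa lines were read in a single PB library. Igkc had 193056 in PB replicate 1 and Igk 20006, while both are listed at 0 in PB replicate 2; B cells had 21462 and 20432 for Igkc and 2279 and 2202 for Igk. The gene lines of PB replicate 2 sum to 824748 RPM, 177212 below the lowest of 23 other libraries (1001960 to 1003690); the 2 libraries of d2 PGCLC sum to 968732 and 969429. Its 0 is therefore not read as a lack of kappa RNA. The lambda lines were read in both: Igl had a mean of 39888 in PB and 3727 in B cells, Iglc1 8042 in PB and 846 in B cells, Iglc2 3000 in PB and 358 in B cells, and Iglc3 1988 in PB and 425 in B cells. The heavy chain lines Ighg2b, Ighg2c, Igha, Igh and Ighd were not higher in PB.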

How the results depend on the processing

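As deposited, without scaling, 661 rises and 3944 falls were called in PB against B cell, and 644 rises and 2833 falls in PB against Blast. When limma tested against the threshold of 1 itself (treat), PB against B cell had 712 rises and 748 falls, Blast against B cell 406 and 611, and PB against Blast 494 and 242, and the paths held 19 passed, 45 returned, 13 partly reversed and 76 undecided genes. With a fold threshold of 0.58 there were 2080 rises in Blast against B cell and 1642 falls in PB against Blast, and 240 passed, 693 returned and 298 partly reversed genes. A pseudocount of 4 left 65 passed, 62 partly reversed and 116 undecided genes. A filter of 5 RPM in 2 of the 6 PB, B cell and Blast libraries gave 128 passed, 303 returned, 125 partly reversed and 319 undecided genes.

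Leaving out each library in turn, with a lone library assumed to vary like the other groups, gave 1434 to 1616 rises and 1514 to 1878 falls in PB against B cell, 1133 to 1340 and 1471 to 1825 in Blast against B cell, and 1185 to 1241 and 890 to 1013 in PB against Blast. It gave 75 to 120 passed genes, 147 to 374 returned (163 without B cell replicate 1, 147 without B cell replicate 2), 84 to 125 partly reversed and 221 to 340 undecided. The libraries left out were those of PB, B cell and Blast only, and both prePB libraries stayed in each fit. A replicate block gave 1580 rises and 1876 falls, with 128 passed, 312 returned, 119 partly reversed and 243 undecided. Whether the replicate numbers pair the libraries is not settled. Of 10875 pairs of a named gene and a setting none changed direction among called values, 336 lost the call and 166 gained it. Of the genes chosen by size, 8430410A17Rik lost its call with a pseudocount of 4, with treat, without PB replicate 2 and without B cell replicate 1, and Fcrla lost it with treat (adjusted p = 0.083). The median of the IL-4 list turned to -0.04 without B cell replicate 2, and that of the immediate early list to 0.01 without PB replicate 2. Depth limits genes of a few RPM.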
